A study of Mus musculus with 4 samples.

Results

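The 8 genes described are *Pbx2*, *Pbx3*, *Pbx4*, *Meis1*, *Meis2*, *Meis3*, *Pknox1* and *Pknox2*, chosen by symbol from 22096 gene symbols in the RNA-seq tables of E13.5 mouse palatal mesenchyme. They took up 16 of 28107 RefSeq transcript entries. The embryos were 2 Foxf2-/-Osr2RFP/+ mutants, 1 Foxf2+/-Osr2RFP/+ littermate and 1 Osr2RFP/+ littermate, on a mixed strain background, and the latter 2 served as controls, so each control genotype had 1 embryo. Each carried 1 *Osr2*RFP allele, in which a red fluorescent protein is made from the *Osr2* locus, and RFP-positive cells of the microdissected palatal shelves were sorted at embryonic day 13.5. The cells are therefore those in which *Osr2* was active, and mutants and controls alike had 1 *Osr2* allele without the insertion. The comparison asked whether loss of the forkhead factor Foxf2 altered the RNA level of any of the 8 genes. Levels were taken as FPKM (fragments per kilobase, scaled to the number mapped in the library), summed over the entries of a symbol, and can be compared between genes because they are scaled to transcript length.

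TALE proteins are homeodomain transcription factors with an extra loop between the first and second helix of the homeodomain. Pbx proteins bind DNA together with Meis or Pknox (Prep) proteins and with many Hox proteins, and binding by Meis or Pknox favours the nuclear location of Pbx. In the head, Pbx proteins are known for roles in facial outgrowth and fusion, and Meis2 for a role in cranial neural crest, from which the palatal mesenchyme derives.

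The coding sequence of the loop is shown first because it is the feature that defines the group. Each line gives 60 coding bases, 5′ to 3′ on the coding strand, from build mm9 (NCBIM37) with GENCODE M1 transcripts, and the capitals mark the 9 bases that encode the loop.
Pbx2: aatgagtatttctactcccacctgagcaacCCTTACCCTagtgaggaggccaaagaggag
Pbx3: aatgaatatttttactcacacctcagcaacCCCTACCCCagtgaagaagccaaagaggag
Pbx4: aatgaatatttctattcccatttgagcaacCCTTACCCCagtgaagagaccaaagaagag
Meis1: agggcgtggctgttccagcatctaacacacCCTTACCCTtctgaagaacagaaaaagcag
Meis2: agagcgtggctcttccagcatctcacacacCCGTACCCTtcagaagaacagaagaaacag
Meis3: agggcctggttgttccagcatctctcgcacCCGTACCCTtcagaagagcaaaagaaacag
Pknox1: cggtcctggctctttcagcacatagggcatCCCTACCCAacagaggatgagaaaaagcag
Pknox2: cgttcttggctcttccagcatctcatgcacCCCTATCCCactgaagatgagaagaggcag

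In the 3 Pbx genes the window lay within exon 5, at chr17:34731570-34731629 on the plus strand for *Pbx2*, chr2:34060333-34060392 on the minus strand for *Pbx3* and chr8:72390410-72390469 on the plus strand for *Pbx4*. In the Meis and Pknox genes an exon junction fell after base 27 of the window, 3 bases before the loop. The pieces were chr11:18841662-18841688 and chr11:18805736-18805768 (minus strand, exons 8 and 9) for *Meis1*, and chr2:115825867-115825893 and chr2:115747452-115747484 (minus strand, exons 8 and 9) for *Meis2*. They were chr7:16767791-16767817 and chr7:16769140-16769172 (plus strand, exons 8 and 9) for *Meis3*. For *Pknox1* they were chr17:31736562-31736588 and chr17:31739731-31739763 (plus strand, exons 8 and 9), and for *Pknox2* chr9:36717214-36717240 and chr9:36702940-36702972 (minus strand, exons 10 and 11). The junction thus stood at the same base in all 5 genes of the Meis and Pknox group and was absent from the 3 Pbx windows.

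Identical residues were counted over a 63-residue window around the loop, encoded by 189 bases. The ends of the window were set by distance from the loop, not by the annotated limits of the homeodomain. Within it the translated sequences of *Meis1* and *Meis2* were identical at 63 residues, although only 161 of the 189 bases matched. *Meis3* matched *Meis1* and *Meis2* at 62 residues each, *Pbx2* matched *Pbx3* at 61, and *Pknox1* matched *Pknox2* at 58. *Pbx4* stood further from its relatives, with 58 residues shared with *Pbx2* and 56 with *Pbx3*. Between groups, Meis and Pknox genes shared 45 or 46 residues, Pbx and Meis genes 26 or 27, and Pbx and Pknox genes 20 to 22.

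**Figure D1:**
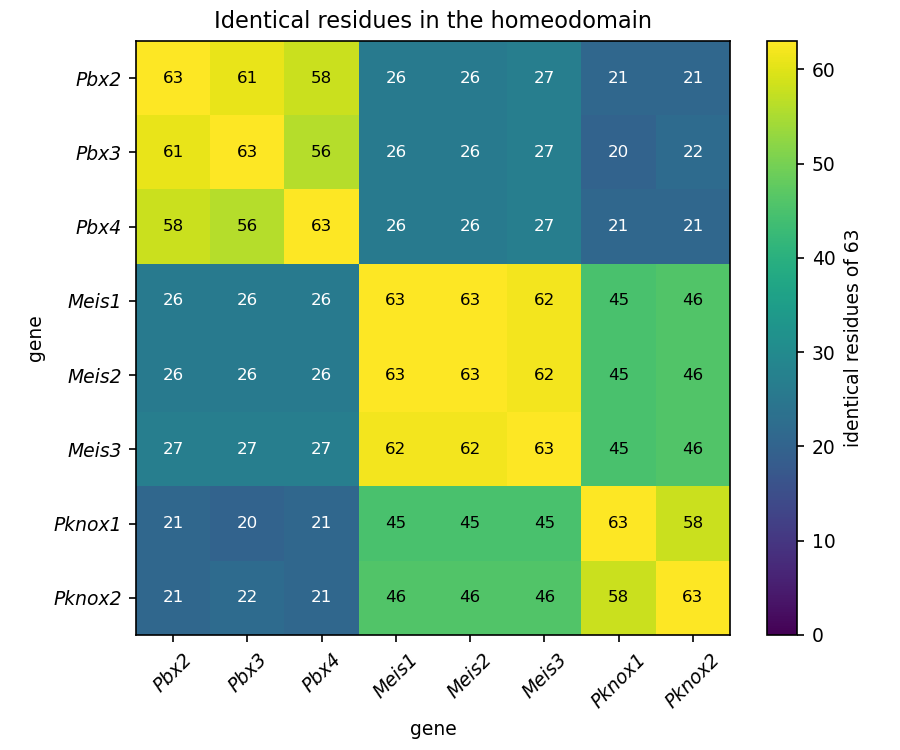
Number of identical residues of 63 between the translated windows around the homeodomain loop, for each pair of the 8 genes. The window was set by distance from the loop, not by the annotated limits of the homeodomain. Both axes list the genes, and colour and number give the count. The Meis block reads 62 or 63 off the diagonal, and Meis and Pknox genes share 45 or 46 residues while Pbx and Pknox genes share 20 to 22.

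The targeted gene followed the genotype labels. *Foxf2* FPKM was 85.4 in the Osr2RFP/+ embryo, 45.1 in the Foxf2+/-Osr2RFP/+ embryo, and 1.41 and 2.28 in the Foxf2-/-Osr2RFP/+ embryos (log2 difference -5.03, limma adjusted p = 0.000322). The 8 markers of palatal mesenchyme, among them *Osr2*, *Barx1*, *Prrx1* and *Twist1*, reached at least 1 FPKM in every embryo. They summed to 1087 and 959 FPKM in the controls, against 915 and 1045 in the mutants, and limma called 0 of the 8. *Shox2* varied most among them, with 114 and 73.4 FPKM in the controls, against 47.7 and 63.7 in the mutants. Epithelial markers summed to between 4.66 and 6.78 FPKM over 6 genes, endothelial markers to between 0.262 and 0.691 over 4, and skeletal muscle markers to between 0.104 and 0.341 over 5, with *Myog* at 0 in every embryo. Markers of neurons and glia summed to between 3.50 and 5.60 FPKM over 5 genes, and *Tubb3* made up most of it. The blood list varied most: the 4 genes reported summed to 17.3 FPKM in the Osr2RFP/+ embryo, 63.3 in the Foxf2+/-Osr2RFP/+ embryo, and 63.4 and 143 in the mutants. Nearly all of that was the hemoglobin genes *Hbb-b1* and *Hba-a1*, and *Ptprc* stayed at or below 0.221 FPKM. The libraries were of similar depth: coverage per FPKM, which gives relative depth, was 1.19 times that of the Osr2RFP/+ library in the Foxf2+/-Osr2RFP/+ library and 1.02 and 1.14 times in the mutants. Read counts cannot be had from these files, so no interval for counting error is given.

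In control palatal mesenchyme the 8 genes spanned a wide range of levels. In falling order, the mean of the 2 controls was 30.4 ± 1.90 FPKM for *Meis2*, 21.9 ± 0.558 for *Pbx3*, 19.3 ± 0.341 for *Pbx2*, 6.18 ± 0.706 for *Meis3*, 5.48 ± 0.568 for *Pknox1*, 5.31 ± 0.890 for *Meis1*, 2.90 ± 0.610 for *Pknox2* and 0.436 ± 0.0690 for *Pbx4* (SD, n = 2 in each case). *Meis2* was above 94.1% of all gene symbols in this measure, *Pbx3* above 91.2% and *Pbx2* above 89.8%, whereas *Pknox2* was above 58.5% and *Pbx4* above 41.9%. Across the 4 embryos the ranges of *Meis2*, *Pbx3* and *Pbx2* did not overlap each other or those of the other 5 genes. The ranges of *Meis3*, *Pknox1* and *Meis1* overlapped, so their order is not resolved, and those of *Pknox2* and *Pbx4* were separate from the rest.

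Summed by group, the 3 Pbx genes gave 41.8 and 41.4 FPKM in the Osr2RFP/+ and Foxf2+/-Osr2RFP/+ embryos and 39.4 and 41.1 in the mutants. The 3 Meis genes gave 43.1 and 40.7 FPKM in the controls, against 39.7 and 45.1 in the mutants, and *Meis2* alone made up 72.6% of the Meis sum in the controls. *Pknox1* and *Pknox2* together gave 9.22 and 7.55 FPKM in the controls, against 7.57 and 8.42 in the mutants. The 8 genes together came to 94.1 and 89.6 FPKM in the controls, against 86.6 and 94.6 in the mutants, so control and mutant sums overlapped. The RNA was from bulk sorted cells, in which fewer cells of a type and less RNA per cell cannot be told apart.

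**Figure D2:**
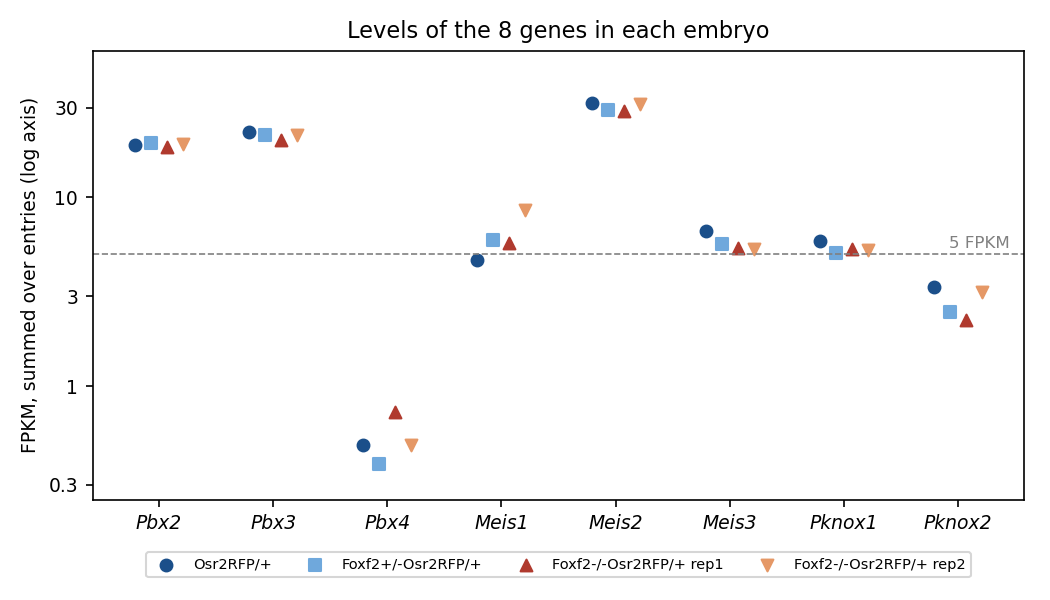
FPKM of the 8 genes on a log axis, 1 point per embryo, with colour and symbol for the embryo's genotype and replicate. *Meis2*, *Pbx3* and *Pbx2* lie between 18.5 and 31.8 FPKM, *Meis3*, *Pknox1* and *Meis1* lie between 4.68 and 8.54, and *Pbx4* stays at or below 0.730; the dashed line marks the 5 FPKM that at least 1 embryo had to reach for testing.

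None of the genes tested among the 8 was called changed in the mutants. Of the 8, 6 reached 5 FPKM in at least 1 embryo and entered the limma fit on log2(FPKM + 0.1) over 7377 genes, and *Pbx4* and *Pknox2* did not. By limma, at an adjusted p under 0.05 and a fold above 1.5, 0 of 6 were called, against 0.0949% of all genes tested (7 genes), and 0 of the 6 had an unadjusted p under 0.05, against 14.7% of all genes tested. By the fold criterion, which asks that the mean of the mutants lie more than 1.5-fold from each control in the same direction, 0 of 6 were called against 0.637% (47 genes). With backgrounds this low, 0 of 6 does not set these genes apart from other genes. The 95% interval of the fold stayed within 1.5-fold either way for 5 of the 6, and for *Meis1* it ran up to 1.80-fold. The median log2 difference of the 6 was -0.03 beside -0.08 for all genes tested. With 2 embryos against 2, an exact two-sided permutation test cannot give a p below 0.333. The labels and methods name separate embryos, so the spread includes differences between animals. Among the controls it also includes the difference in genotype, which cannot be told apart from that between animals with 1 embryo each.

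Position relative to both controls was compared in the same way. Both mutants lay below both controls for 2 of the 6 (*Pbx3* and *Meis3*), against 38.8% of all genes tested, and above both controls for 0 of the 6, against 8.66%. These positions depended on the scaling. Rescaling the embryos by median ratios centres the differences of all genes by construction, and it gave shares of 22.3% and 21.5% over all genes, which does not show which scaling is right. After it, neither *Pbx3* nor *Meis3* was separated any longer, and *Meis1* lay above both controls. The number of tested members with a log2 difference below 0 was 5 of 6 as deposited and 1 of 6 after rescaling. The signs of the small differences below are therefore not fixed, apart from those of *Meis1* and *Meis3*, which held under both scalings.

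*Pbx2* and *Pbx3* encode the broadly expressed partners of Meis and Pknox proteins. *Pbx2* (chr17:34729416-34734286, plus strand, 1 entry of 2801 bases) had 19.0 FPKM in the Osr2RFP/+ embryo, 19.5 in the Foxf2+/-Osr2RFP/+ embryo, and 18.5 and 19.3 in the mutants. Its highest and lowest embryos differed by 1.05-fold, the narrowest spread of the 8 genes, and the groups overlapped. The log2 difference, mutant minus control, was -0.03 with a 95% interval from -0.23 to 0.18 (limma adjusted p = 0.919). *Pbx3* (chr2:34027429-34227556, minus strand, 1 entry of 2393 bases) had 22.3 and 21.5 FPKM in the controls, against 20.1 and 21.3 in the mutants. Both mutants were lower than both controls, by a margin smaller than the gap between the 2 mutants. Its log2 difference was -0.08, with an interval from -0.29 to 0.13 (limma adjusted p = 0.727).

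*Pbx4* (chr8:72356603-72396191, plus strand, 1 entry of 1347 bases), a family member best known from the testis, was close to the bottom of the scale. It had 0.485 FPKM in the Osr2RFP/+ embryo, 0.387 in the Foxf2+/-Osr2RFP/+ embryo, and 0.730 and 0.488 in the mutants. The mutants were the higher 2 values, but replicate 2 exceeded the Osr2RFP/+ control by a margin far smaller than the gap between the mutants. The log2 difference of 0.39 was not tested, since the gene was below the filter. Coverage of its entry was between 0.624 and 1.02 reads deep, so on average each base was read about once or less.

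Among the Meis genes, which encode DNA-binding partners that favour the nuclear location of Pbx, *Meis2* stayed level while *Meis1* varied between embryos. *Meis2* (chr2:115687000-115890794, minus strand, 6 entries of 4621 to 5010 bases) had 31.8 FPKM in the Osr2RFP/+ embryo, 29.1 in the Foxf2+/-Osr2RFP/+ embryo, and 28.6 and 31.2 in the mutants. The lowest and the second highest value were both mutants, so the groups overlapped. Its log2 difference was -0.02 with an interval from -0.25 to 0.20 (limma adjusted p = 0.934), and it was covered between 39.8 and 48.4 reads deep. *Meis3* (chr7:16760729-16771852, plus strand, 1 entry of 1780 bases) had 6.68 and 5.68 FPKM in the controls, against 5.38 and 5.33 in the mutants. Both mutants were below both controls, and the gap between the 2 controls was larger than that from the Foxf2+/-Osr2RFP/+ control to either mutant. Its log2 difference was -0.20 with an interval from -0.51 to 0.11 (limma adjusted p = 0.532), and the exact permutation p was 0.333, the smallest possible.

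*Meis1* (chr11:18780431-18918972, minus strand, 2 entries of 3346 and 3441 bases), a gene known for its part in blood stem cells as well as in limb and eye development, had the largest difference among the 6 tested genes. It had 4.68 FPKM in the Osr2RFP/+ embryo, 5.94 in the Foxf2+/-Osr2RFP/+ embryo, 5.73 in mutant replicate 1 and 8.54 in mutant replicate 2. The Osr2RFP/+ embryo was lowest and mutant replicate 2 highest, while mutant replicate 1 was just below the Foxf2+/-Osr2RFP/+ control, so the groups overlapped. The log2 difference was 0.40 ± 0.20 (SE), or 1.32-fold with a 95% interval from 0.966 to 1.80 (limma adjusted p = 0.388, unadjusted p = 0.0751). It was 0.57 against the Osr2RFP/+ control and 0.23 against the Foxf2+/-Osr2RFP/+ control. The 2 mutants differed from each other by 0.57 on the same scale, beside an SD of 0.21 for the difference between the mutants over all genes tested. Without mutant replicate 2 the log2 difference was 0.12, and without mutant replicate 1 it was 0.68. The hemoglobin-led blood markers given above were also lowest in the Osr2RFP/+ embryo and highest in mutant replicate 2, and their part in the *Meis1* values was not tested.

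The 3 genes whose profile over the 4 embryos was nearest to that of *Meis1*, among 7371 compared, were *Ebf3*, *Bola3* and *Tubb2b*. The Euclidean distances between centred log2(FPKM + 0.1) profiles were 0.0740, 0.0749 and 0.0942. *Ebf3*, which encodes a transcription factor of the early B-cell factor family, had 5.94 and 7.29 FPKM in the controls, against 7.56 and 10.9 in the mutants. *Bola3*, which encodes a mitochondrial iron-sulfur cluster factor, had 6.01 and 7.53 FPKM in the controls, against 7.73 and 10.8 in the mutants. *Tubb2b*, a beta-tubulin gene of neurons and other embryonic cells, had 8.72 and 10.6 FPKM in the controls, against 10.6 and 14.5 in the mutants. Limma called none of the 3 (adjusted p between 0.297 and 0.338), and they were picked for this likeness over 4 points.

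*Pknox1* and *Pknox2* encode Prep proteins, which compete with Meis for Pbx. *Pknox1* (chr17:31701718-31744638, plus strand, 2 entries of 4213 and 4460 bases) had 5.88 and 5.08 FPKM in the controls, against 5.33 and 5.28 in the mutants. Both mutants lay between the controls. The log2 difference was -0.04 with an interval from -0.36 to 0.28 (limma adjusted p = 0.921). *Pknox2* (chr9:36698567-36954899, minus strand, 2 entries of 3434 and 3491 bases) had 3.33 and 2.47 FPKM in the controls, against 2.24 and 3.14 in the mutants. Each group held 1 higher and 1 lower embryo, and the log2 difference of -0.11 was not tested because the gene stayed below the filter.

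**Figure D3:**
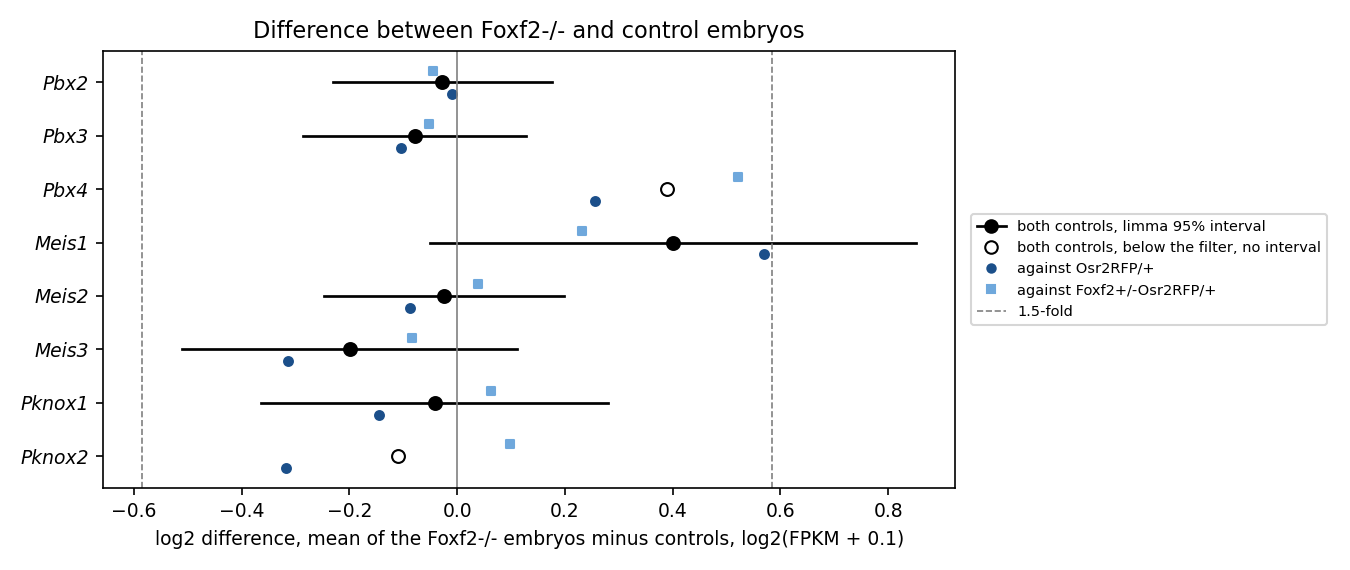
Log2 difference in FPKM + 0.1 between the mean of the 2 Foxf2-/-Osr2RFP/+ embryos and the controls, 1 row per gene. Black points with bars are limma estimates with 95% intervals against both controls, open points are genes below the filter, small blue points are the differences from each control alone, and dashed lines mark 1.5-fold. All 6 intervals include 0, and the *Meis1* interval, which reaches 0.85, is the only one to cross a dashed line.

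The entries of *Meis1* and *Meis2* differ in a 95-base exon, exon 12 of 13, that adds an early stop and so gives the protein another C terminus. Its coding part, 59 bases including the stop codon in capitals, is printed because both genes carry nearly the same copy, with 56 of 59 bases identical. The exons lie at chr11:18783991-18784085 for *Meis1* and chr2:115692546-115692640 for *Meis2* (both minus strand, mm9).
Meis1: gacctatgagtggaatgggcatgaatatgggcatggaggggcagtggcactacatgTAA
Meis2: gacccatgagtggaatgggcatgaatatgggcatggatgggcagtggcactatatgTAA

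By length, the *Meis1* entry NM_001193271 matched an annotated transcript with the exon that encodes 390 residues, and NM_010789 matched one without it that encodes 465. Entries with the exon held most of the signal in every embryo. For *Meis1* the share was 93.7% in the Osr2RFP/+ embryo, 99.998% in the Foxf2+/-Osr2RFP/+ embryo, and 95.1% and 85.1% in the mutants. The entry without the exon had 0.297 FPKM in the Osr2RFP/+ embryo, 0.000117 in the Foxf2+/-Osr2RFP/+ embryo, and 0.281 and 1.27 in the mutants, so the highest *Meis1* embryo was also the one with the most of it. The entry with the exon, at 4.39, 5.94, 5.45 and 7.27 FPKM in the same order, kept the same ranking of embryos as the gene.

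For *Meis2*, 4 of 6 entries matched transcripts with the exon, which encode 393 to 401 residues, and the other 2 matched transcripts without it, which encode 470 and 477. The share with the exon was 85.0% and 83.4% in the controls and 75.6% and 87.7% in the mutants. The mutants gave both the lowest and the highest share. In mutant replicate 1 the entries without the exon came to 6.99 FPKM, beside 4.76, 4.84 and 3.83 in the other embryos. A second choice in *Meis2* is a 21-base, 7-residue extension at the start of exon 11 (chr2:115693095-115693115, minus strand), shown because its end is the alternative splice acceptor.
Meis2 extension: gttttcttcttgatccttcag
Entries with this extension held 40.1% and 41.0% of *Meis2* FPKM in the controls, against 41.3% and 29.4% in the mutants. The 29.4% of mutant replicate 2 was the lowest, and the other 3 embryos lay close together.

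The 2 *Pknox2* entries both encode 474 residues and differ outside the coding sequence. In the Osr2RFP/+ embryo nearly all signal was assigned to NM_148950, at 3.33 FPKM beside 0.000202 for NM_001029838. In the other 3 embryos NM_001029838 took 42.3%, 61.0% and 57.4% of the gene, with 1.05 FPKM in the Foxf2+/-Osr2RFP/+ embryo and 1.37 and 1.80 in the mutants. The entry thus separated the Osr2RFP/+ embryo from the other 3, but the gene was covered only 3.12 to 4.87 reads deep. For *Pknox1* the non-coding entry NR_027493 held 7.48% and 29.0% of the gene in the controls and 8.19% and 7.31% in the mutants, so the Foxf2+/-Osr2RFP/+ embryo stood apart there. The sources used here do not say how reads that fit both *Meis1* and *Meis2* over the nearly shared exon were assigned, so part of the signal with the exon could belong to the other gene. Entry values are estimates that divide reads between overlapping transcripts, the tables give no error for them, and each control genotype had 1 embryo, so none of these shares was tested.

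**Figure D4:**
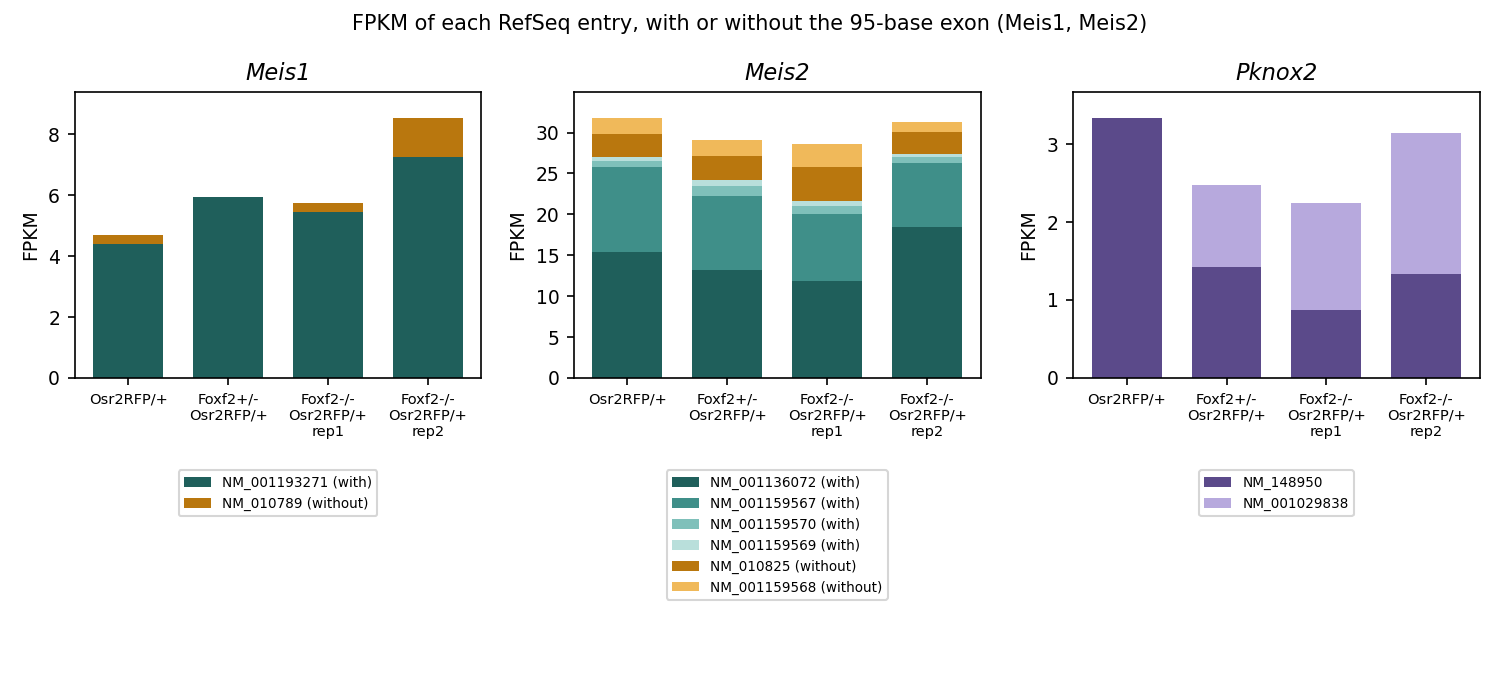
FPKM of each RefSeq entry of *Meis1*, *Meis2* and *Pknox2*, stacked, 1 bar per embryo. In the *Meis1* and *Meis2* panels, green entries match transcripts with the 95-base exon and orange entries those without it, and the orange part is largest in mutant replicate 2 for *Meis1* (1.27 FPKM) and in mutant replicate 1 for *Meis2* (6.99 FPKM). In the *Pknox2* panel the entry NM_001029838 (light) is near 0 in the Osr2RFP/+ embryo alone.

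Of the 9 other TALE genes listed, 3 were tested, none was called by limma or by the fold criterion (background 0.0949% and 0.637% of all genes tested), and in 3 of 3 both mutants lay below both controls, against 38.8% of all genes tested. After median-ratio rescaling this held for *Tgif1* and *Mkx* but not for *Tgif2*. Their median log2 difference was -0.17, beside -0.08 over all genes tested. *Mkx* (Mohawk), a gene of tendon cells, had 12.2 and 9.55 FPKM in the controls, against 8.51 and 7.68 in the mutants, with a log2 difference of -0.41 and an interval from -0.71 to -0.12 (limma adjusted p = 0.243). *Tgif1*, which encodes a corepressor in TGF-beta signalling, had 30.1 and 29.0 FPKM in the controls, against 26.6 and 27.5 in the mutants (log2 difference -0.13, limma adjusted p = 0.545). *Tgif2* had 7.32 and 8.16 FPKM in the controls, against 6.61 and 7.12 in the mutants (log2 difference -0.17, limma adjusted p = 0.525). The 6 *Irx* genes were below the filter.

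Partners and cofactors of Pbx and Meis gave no call either, with 9 of 15 genes tested, 0 called in either direction by limma or by the fold criterion and a median log2 difference of -0.03. Against backgrounds of 0.0949% and 0.637%, 0 of 9 says nothing particular about these genes. *Crebbp*, an acetyltransferase coactivator, had 52.1 and 50.3 FPKM in the controls, against 54.8 and 55.5 in the mutants (log2 difference 0.11, limma adjusted p = 0.607). *Hdac1*, a histone deacetylase, had 50.3 and 47.3 FPKM in the controls, against 44.6 and 46.8 in the mutants (log2 difference -0.09, limma adjusted p = 0.665). *Myh10*, a nonmuscle myosin heavy chain, and *Mybbp1a*, a nucleolar corepressor, had log2 differences of -0.14 and -0.13 (limma adjusted p = 0.522 and 0.545). The Hox genes, the best known partners, were nearly silent: none of the 39 Hox cluster genes reached 1 FPKM in any embryo, and 11 were listed at 0 in every embryo. The highest value was 0.314 FPKM for *Hoxa2* in mutant replicate 2, a gene named after its values were seen. The levels of the 8 genes were thus measured in RNA with almost no Hox transcripts, in mutants and controls alike.

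Of the 10 genes linked to Pbx or Meis in other tissues, 4 were tested, limma called 0 (0.0949% of all genes tested) and the fold criterion called 1 (0.637% of all genes tested). That was *Pf4*, which encodes platelet factor 4 and is a known Meis and Pbx target in megakaryocytes. It had 4.28 and 5.69 FPKM in the controls, against 0.684 and 2.86 in the mutants, so both mutants were lower, and the log2 difference was -1.72 with a wide interval from -3.01 to -0.44 (limma adjusted p = 0.252). The call rested on mutant replicate 1: without it the fold below the nearer control was 1.48, under the threshold. *Pf4* passed the filter of 5 FPKM only through the Foxf2+/-Osr2RFP/+ control, so the filter itself favoured a lower value in the mutants. The list was also chosen with earlier results of these data known, so this call is not a result about Pbx or Meis targets. The hemoglobin-led blood sum ran the other way, from 17.3 and 63.3 FPKM in the controls to 63.4 and 143 in the mutants, and its relation to *Pf4* was not tested. *Cyp26b1*, which encodes a retinoic acid-degrading enzyme, had 32.4 and 28.3 FPKM in the controls, against 24.2 and 25.4 in the mutants, with a log2 difference of -0.28 and an interval from -0.51 to -0.06 (limma adjusted p = 0.270). *Hmga2*, an architectural chromatin factor, had 129 and 125 FPKM in the controls, against 121 and 127 in the mutants (log2 difference -0.03, limma adjusted p = 0.907).

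**Figure D5:**
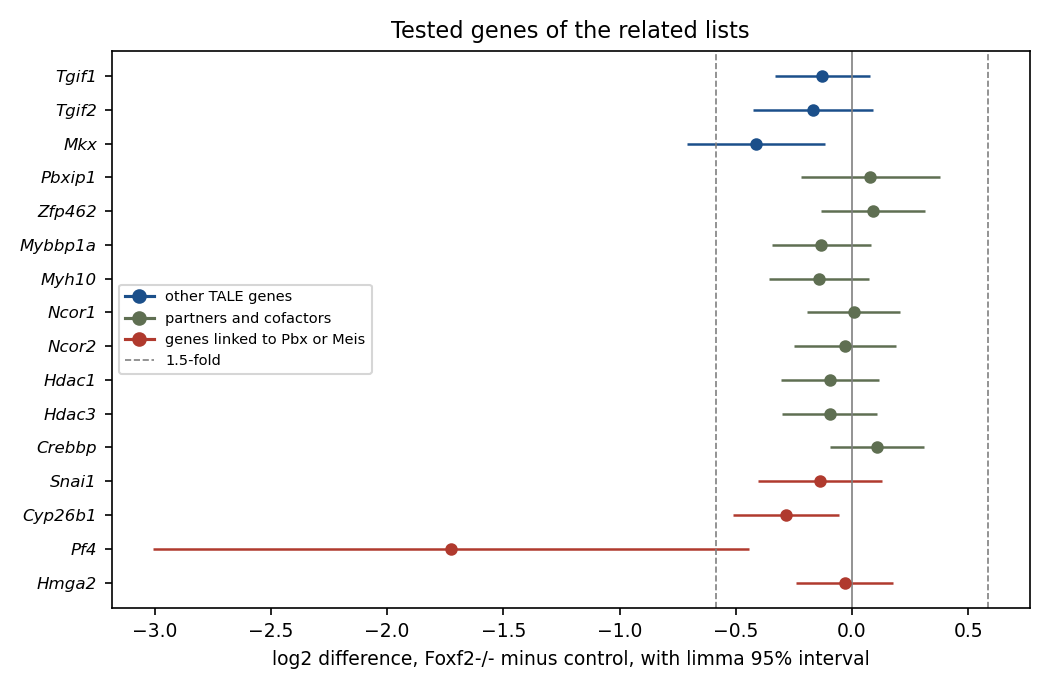
Log2 difference, Foxf2-/-Osr2RFP/+ minus control, for the tested genes of the related lists, with limma 95% intervals and colour for the list. Dashed lines mark 1.5-fold. *Pf4* lies at -1.72 with the widest interval, and *Mkx*, *Cyp26b1* and *Pf4* have intervals that do not include 0, though none passed the adjusted threshold.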

How the data were processed

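RNA of sorted RFP-positive cells from 4 E13.5 embryos was measured in libraries made with the Illumina Nextera kit, which does not mark strand, and sequenced as single-end reads. The authors aligned the reads to mm9 with Tophat and Bowtie (0.12.7 per the labels), and deposited FPKM for each RefSeq entry, with coverage (the signal, mean read depth over an entry, not scaled for library size), in 1 table per embryo of the form Cufflinks writes. The program's version and options and the read length are not given in the sources used here. Only the Foxf2-/-Osr2RFP/+ genotype had 2 embryos.

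From the deposited FPKM, entries 200 bases or longer were summed by symbol, leaving out entries flagged as low in data and 10 genes whose estimate had failed. The 7377 genes that reached 5 FPKM in any embryo were tested as log2(FPKM + 0.1), which understates the changes of low genes. Mutants were set against controls in limma (version 3.58.1, R 4.3.3) with eBayes and a variance trend, and Benjamini-Hochberg adjustment ran over all genes tested. A call needed an adjusted p under 0.05 and more than 1.5-fold. The fit was also run on simulated data with planted changes, and the share recovered at 1.5-fold is not given here. Tables were joined in Python (3.11.15; pandas 2.3.3; numpy 2.4.6), and scipy 1.17.1 gave the permutation test. Depth in reads is unknown.

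The members, lists and tests were chosen with earlier results of these data known. Named were the 8 members, in each other list the genes called, the 2 with the highest mean FPKM and the 2 with the largest log2 difference among those tested, and the 3 genes nearest to *Meis1* in profile. Entries were matched to GENCODE M1 transcripts by length. Loci are as the tables give them, with 1-based starts. None of the 8 loci overlapped another gene of the tables, and annotated genes that overlap them share 0 exon bases with them. Protein sequences were not used here, and residue counts come from translated coding sequences. Alternatives varied the pseudocount, filter, scaling, entries, design, thresholds and embryos. One blood marker is not reported here.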

Additional observations from a re-analysis of the deposited data

How the results depend on the processing

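*Pbx2*, *Pbx3*, *Meis1*, *Meis2*, *Meis3* and *Pknox1* were called by neither limma nor the fold criterion under the alternatives that tested them. *Pbx4* was tested under 1 alternative and *Pknox2* under 2, those with a lower filter or none, again with no call. The counts over all genes moved far more. Limma called 7 genes as reported, 19 with a pseudocount of 1, 13 with 0.01, 11 after rescaling by median ratios, 26 with entries of every length, 1 with the highest entry of each symbol, 77 with a mean for each genotype, 52 with the number of null alleles as a linear term, and 0 with no filter on low values, where 1963 genes had an unadjusted p under 0.05. Leaving out 1 embryo gave 6 to 121 limma calls, with 24 without the Osr2RFP/+ embryo and 121 without the Foxf2+/-Osr2RFP/+ embryo, where the lone control is assumed to vary like the mutants. The fold criterion called 47 genes as reported, 215 with a filter of 1 FPKM, 638 with none, 184 with entries of every length, 94 with the highest entry, 302 with the lower and 15 with the higher fold threshold tried and 109 when only the mean of the controls was used. It called 69 to 214 without 1 embryo, with 86 without the Osr2RFP/+ embryo, 214 without the Foxf2+/-Osr2RFP/+ embryo and 71 without mutant replicate 1.

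Signs turned for 4 genes with differences near 0. After median-ratio rescaling the log2 difference was 0.054 for *Pbx2*, 0.0024 for *Pbx3*, 0.057 for *Meis2* and 0.038 for *Pknox1*. With the highest entry alone it was 0.052 for *Meis2* and 0.14 for *Pknox1*. Without the Osr2RFP/+ embryo it was 0.039 for *Meis2* and 0.062 for *Pknox1*, and without mutant replicate 1 it was 0.00085 for *Pbx2* and 0.039 for *Meis2*. Leaving out 1 embryo, the lowest values were -0.056 for *Pbx2*, -0.088 for *Meis2* and -0.15 for *Pknox1*. The *Meis1* difference stayed above 0 under each of 14 alternatives, from 0.12 to 0.68, with limma adjusted p from 0.225 to 0.854, and that of *Meis3* stayed below 0, from -0.31 to -0.08. No paired analysis was possible because the control genotypes have 1 embryo each and the groups share fewer than 2 replicate numbers. With 2 embryos a group and 1 of each control genotype, differences of the size seen in *Meis1* cannot be told from spread between embryos.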
